A study of Mus musculus with 24 samples.

Results

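Control liver sinusoidal endothelial cells (LSECs) were compared with the control non-endothelial (non-EC) liver cells of embryonic day (E) 12.5 mice. The 6 libraries were chosen by their labels, 3 of LSECs and 3 of non-EC cells from Cre-negative embryos, out of 24 libraries in all. The study separated dissociated livers on beads against CD146, the adhesion molecule encoded by *Mcam*, so that an LSEC library holds the RNA of CD146+ cells and a non-EC library that of the cells that did not bind. Control embryos were littermates without VE-cadherin-Cre, the transgene that drives recombination in endothelial cells and in blood cells that arise from them, and the labels call them Cre- with no statement of floxed alleles. By the crosses of the study every embryo had at least 1 floxed allele of *Brg1* and of *Chd4*, 2 genes of chromatin remodelers, and the controls carried no Cre to recombine it. The 18 other libraries came from 3 genotypes with the transgene, of which *Brg1/Chd4-ECdko* is fl/fl for both genes, *Brg1-ECko* is fl/fl for *Brg1* with 1 floxed *Chd4* allele, and *Chd4-ECko* is the reverse. They serve below only to repeat the comparison in other embryos. Livers were digested with transcription inhibitors and red cells were lysed before the beads were added, and each data point was stated to be 1 embryo, which the labels do not say, so that p-values measure the spread between these libraries. All libraries carry 1 batch label. A bead selection is an enrichment, and the markers of other cell types in each fraction are given with the results.

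Sinusoidal endothelial cells line the capillaries of the liver, form pores instead of a closed wall and take up macromolecules from blood through scavenger receptors. The fetal liver is also the main site of blood formation, where hepatoblasts, the precursors of hepatocytes and bile duct cells, surround erythroid islands and myeloid precursors. Endothelial cells of the fetal liver answer to VEGF and angiopoietins and supply hepatoblasts, stellate cells and blood precursors with growth factors, and stellate cells, which lie against the sinusoid, make collagen and store vitamin A.

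Levels are given in TPM, a length-corrected share of the transcripts in a library, and they do not hold the number of reads behind a value, so no counting error is given. Of 25361 genes, 12880 reached 1 TPM in 3 or more of these libraries and were tested with limma on log2(TPM + 1), a scale that understates the change of genes with low values. A differentially expressed gene (DEG) differed by more than 1 on the log2 scale with an adjusted p below 0.05, and a positive sign means higher in LSECs. Of the tested genes 4409 (34.2%) were DEGs, 2579 higher in LSECs (20.0%) and 1830 lower (14.2%), while the libraries of the 2 fractions did not overlap for 76.3% of the tested genes. Separation of the libraries in a gene named below is therefore the usual case and no finding of its own. All tested genes together had a median log2 fold change of -0.12. Correlations on the log2 scale ran from 0.984 to 0.993 within a fraction and from 0.792 to 0.826 between fractions. The 13 mitochondrial transcripts took 24.5, 20.6 and 24.6% of the TPM in LSEC replicates 1, 2 and 3 and 7.69, 6.17 and 7.51% in the non-EC replicates (p = 0.1 by a two-sided exact permutation test, which can go no lower with 3 against 3). Since every other gene shares what remains, the fold changes were also computed on TPM rescaled without mitochondrial genes, which moved the median to 0.14 and left 2566 of the 2579 higher and 1178 of the 1830 lower DEGs called, with 3179 higher and 1180 lower in all (72.9% of DEGs higher, against 58.5%). With quantile normalization the split was 2066 higher and 2164 lower, so the balance of the 2 directions moved with the scaling.

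The markers of both fractions separated the libraries without overlap. *Stab2*, a hyaluronan receptor by which sinusoidal endothelium clears macromolecules, had 135, 146 and 114 TPM in LSEC replicates 1, 2 and 3 and 0.9999, 0.340 and 0.487 TPM in the non-EC replicates. *Cdh5*, which encodes VE-cadherin of endothelial junctions, had 362, 368 and 297 TPM in LSECs and 9.10, 3.33 and 5.64 TPM in non-EC cells. For both genes every LSEC library lay far above every non-EC library, and within non-EC cells replicate 1 was the highest. The log2 fold change was 6.38 for *Stab2* (standard error 0.18, limma adjusted p = 7.64e-08) and 5.69 for *Cdh5* (standard error 0.26, limma adjusted p = 4.45e-07). *Kdr*, the main receptor of VEGF-A, had 279, 264 and 216 TPM in LSECs and 5.47, 3.11 and 4.90 TPM in non-EC cells, a log2 fold change of 5.55 (limma adjusted p = 1.17e-07). *Mcam*, the antigen of the beads, had 61.5, 60.9 and 49.4 TPM in LSECs and 0.258, 0.402 and 0.772 TPM in non-EC cells (log2 fold change 5.31), which checks the selection and is no separate finding. The hepatoblast markers went the other way and less far. *Afp*, alpha-fetoprotein of fetal plasma, had 1756, 2756 and 1267 TPM in LSECs and 7808, 7857 and 8506 TPM in non-EC cells. *Hpx*, the heme-binding plasma protein hemopexin, had 43.9, 62.6 and 33.1 TPM in LSECs and 145, 139.7 and 182 TPM in non-EC cells. LSEC replicate 2 was the highest of the LSEC libraries for both, and no LSEC library reached the lowest non-EC library. The log2 fold change was -2.14 for *Afp* (standard error 0.24, limma adjusted p = 5.67e-05) and -1.76 for *Hpx* (standard error 0.21, limma adjusted p = 7.64e-05). In GRCm39, *Stab2* lies on chromosome 10 from 86675054 to 86843889, reverse strand, *Cdh5* on chromosome 8 from 104828231 to 104871143, forward strand, and *Kdr* on chromosome 5 from 76093487 to 76139884, reverse strand. *Mcam* lies on chromosome 9 from 44045504 to 44054025, forward strand, *Afp* on chromosome 5 from 90638584 to 90656766, forward strand, and *Hpx* on chromosome 7 from 105240817 to 105249344, reverse strand.

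**Figure D1:**
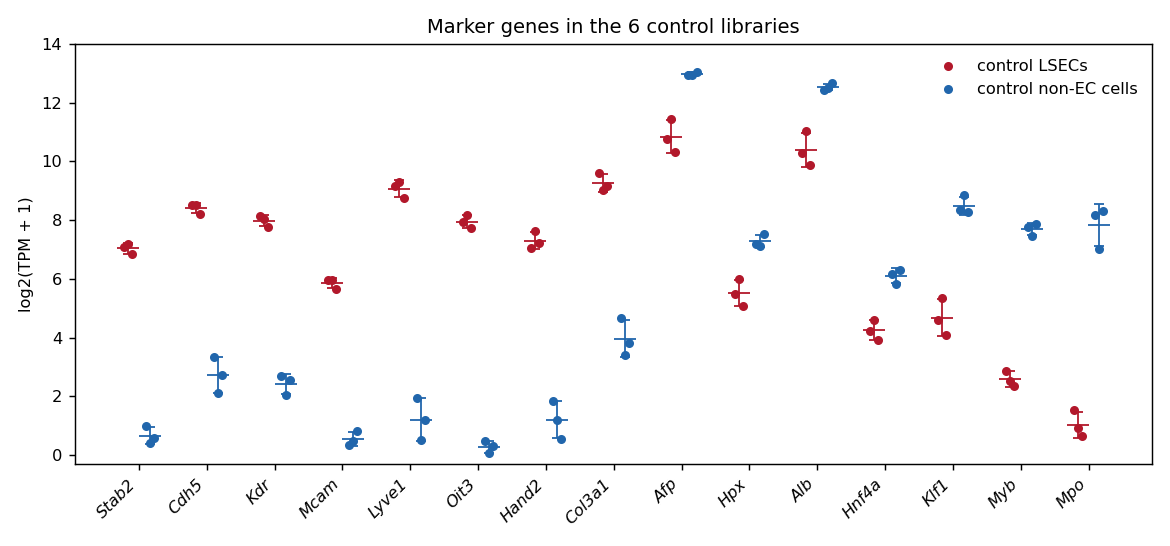
Level of 15 marker genes as log2(TPM + 1) in the 3 control LSEC libraries and the 3 control non-EC libraries, with each point 1 library, the bar the mean and the whiskers the SD. The endothelial and mesenchymal markers on the left are high in the LSEC libraries only, the hepatoblast and blood markers on the right are higher in non-EC cells, and *Afp* and *Alb* stay above a log2 level of 9 in LSEC libraries.

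The largest differences named well-known sinusoidal and endothelial genes beside a few that are not endothelial markers. Among DEGs whose libraries did not overlap, the 10 with the largest log2 fold change were *Lyve1* (7.86), *Mest* (7.75), *Oit3* (7.67), *Fam167b* (7.09), *Cldn5* (6.98), *Gap43* (6.96), *Fabp4* (6.72), *Mmrn2* (6.38), *Stab2* (6.38) and *Clec14a* (6.22). *Lyve1*, a hyaluronan receptor of sinusoids and lymphatics, had 573, 629.7 and 432 TPM in LSECs and 2.84, 0.415 and 1.27 TPM in non-EC cells. *Oit3*, a secreted protein restricted in adult liver to sinusoidal endothelium, had 243, 287 and 213 TPM against 0.379, 0.0491 and 0.236 TPM. *Mest*, an imprinted gene expressed from the paternal allele in many embryonic tissues, had 1415, 1507 and 1222 TPM against 8.12, 4.05 and 4.63 TPM. All LSEC libraries exceeded all non-EC libraries in each of these genes, which their choice among genes without overlap had fixed. *Cldn5* encodes an endothelial tight junction protein, *Mmrn2* an endothelial matrix protein, *Clec14a* its endothelial binding partner, *Fabp4* a fatty acid binding protein and *Gap43* a growth cone protein best known from neurons. The 10 with the most negative log2 fold change were blood cell genes for the most part, *Mpo* (-6.80), *Myb* (-5.11), *Ptprcap* (-4.64), *Prtn3* (-4.42), *Ermap* (-4.35), *Prg2* (-4.29), *Spn* (-4.17), *Ctse* (-4.15), *Kcnn4* (-3.91) and *Cited4* (-3.85). *Mpo*, myeloperoxidase of neutrophil precursors, had 1.87, 0.874 and 0.585 TPM in LSECs and 288, 128 and 318 TPM in non-EC cells. *Myb*, a transcription factor of blood progenitors, had 6.33, 4.78 and 4.17 TPM against 219, 176 and 232 TPM. The lack of overlap in both genes was likewise fixed by their choice, and *Mpo* was lowest in replicate 2 among the non-EC libraries. Large differences were lopsided, with 516 DEGs higher by more than 3 log2 units and 71 lower by more than 3, and 76 against 2 (*Mpo* and *Myb*) beyond 5.

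**Figure D2:**
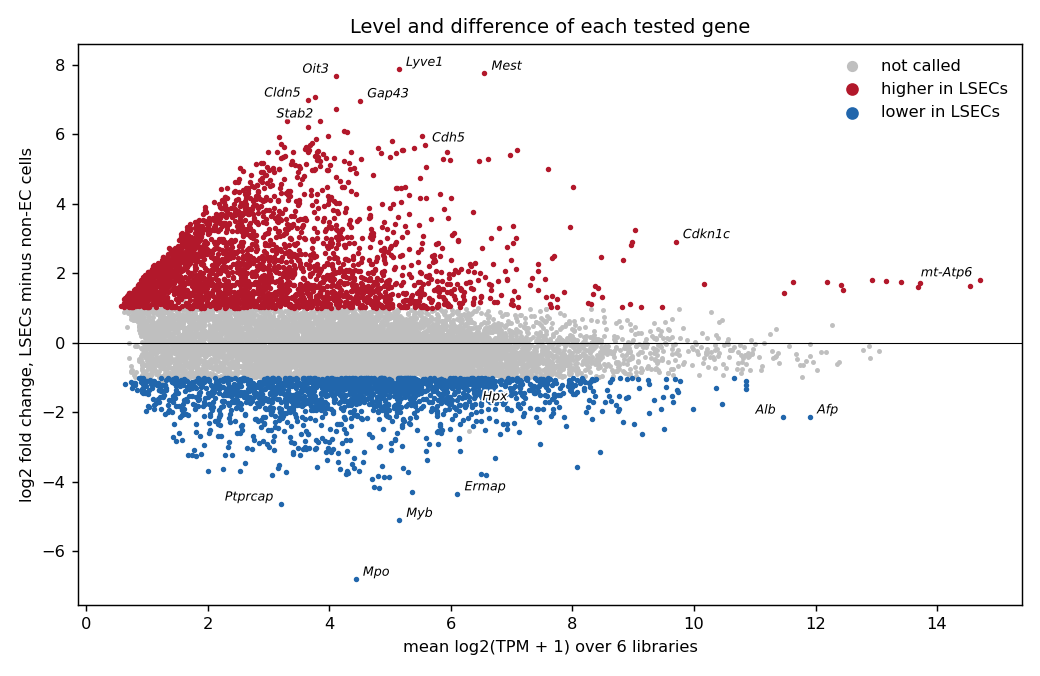
Log2 fold change of LSECs against non-EC cells for each of the 12880 tested genes, over the mean log2(TPM + 1) of the 6 libraries, with higher DEGs in red, lower DEGs in blue and other genes in grey. Red points reach 7.86 and blue points -6.80, few blue points pass -5, and the 13 mitochondrial transcripts lie among the red points at the right edge.

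Promoters of 5 genes from both sides are shown because they carry short motifs of the factors discussed below, and they were chosen after the matches were seen. They are RefSeq sequences of build GRCm38.p6, from 250 bases before to 50 after the start of the gene, and capitals mark matches on either strand. The letters searched were AGGAAG for the ETS factors of endothelium and blood and AGATAA for the factor family of *Gata1*, *Gata2* and *Gata4*. The others were GTTAAT for part of an HNF1 site, AAAGTCC for the hepatocyte receptor HNF4 and CACACCC for KLF1. No motif contains another of them.

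Stab2 promoter, chr10:87007893-87008192, reverse strand: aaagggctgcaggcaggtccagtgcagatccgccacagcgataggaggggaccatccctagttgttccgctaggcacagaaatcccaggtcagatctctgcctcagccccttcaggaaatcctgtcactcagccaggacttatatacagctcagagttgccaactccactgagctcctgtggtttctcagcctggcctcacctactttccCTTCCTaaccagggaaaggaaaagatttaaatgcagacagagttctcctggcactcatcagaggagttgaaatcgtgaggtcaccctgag

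Afp promoter, chr5:90490464-90490763, forward strand: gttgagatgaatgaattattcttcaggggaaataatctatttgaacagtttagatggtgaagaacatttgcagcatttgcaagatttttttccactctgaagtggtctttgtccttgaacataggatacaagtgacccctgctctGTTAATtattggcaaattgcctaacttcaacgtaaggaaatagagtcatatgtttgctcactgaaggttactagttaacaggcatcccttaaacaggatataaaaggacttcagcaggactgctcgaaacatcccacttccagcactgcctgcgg

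Alb promoter, chr5:90460620-90460919, forward strand: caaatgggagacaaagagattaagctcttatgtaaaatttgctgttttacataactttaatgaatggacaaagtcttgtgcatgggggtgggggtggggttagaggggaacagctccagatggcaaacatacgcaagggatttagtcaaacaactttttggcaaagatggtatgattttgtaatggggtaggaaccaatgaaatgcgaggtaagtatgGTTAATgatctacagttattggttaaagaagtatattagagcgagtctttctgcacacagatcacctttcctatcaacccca

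Klf1 promoter, chr8:84901732-84902031, forward strand: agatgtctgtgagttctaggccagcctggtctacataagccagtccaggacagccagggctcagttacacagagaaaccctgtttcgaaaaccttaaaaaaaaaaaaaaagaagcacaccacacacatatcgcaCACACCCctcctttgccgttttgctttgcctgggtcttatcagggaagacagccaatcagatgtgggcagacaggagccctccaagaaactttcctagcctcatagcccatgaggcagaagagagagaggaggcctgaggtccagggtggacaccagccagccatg

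Mpo promoter, chr11:87793534-87793833, forward strand: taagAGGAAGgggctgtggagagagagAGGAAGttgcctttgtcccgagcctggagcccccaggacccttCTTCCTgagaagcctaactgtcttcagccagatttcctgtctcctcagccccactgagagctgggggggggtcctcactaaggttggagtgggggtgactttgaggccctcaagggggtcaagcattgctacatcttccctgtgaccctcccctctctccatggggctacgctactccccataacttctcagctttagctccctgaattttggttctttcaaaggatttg

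The *Stab2* promoter held 1 match to the ETS letters, those of *Afp* and *Alb* 1 match each to the HNF1 letters, that of *Klf1* 1 match to the KLF1 letters and that of *Mpo* 3 matches to the ETS letters. The windows of *Kdr*, *Mcam* and *Hpx* held none of the 5 motifs. The ETS letters were found in 9 of 15 pan-endothelial promoters that had a sequence, but also in 34.1% of the promoters of higher DEGs, 33.2% of those of lower DEGs and 35.1% of all promoters of this length. The HNF1 letters were found in 6 of 21 promoters of hepatoblast secreted proteins and in 7.20% of all promoters. The letters of the *Gata1* family occurred in 6 of 19 erythroid promoters against 11.4% of all, and the KLF1 letters in 5 of 19 against 7.85%. The HNF4 letters occurred in 0 of 21 hepatoblast promoters against 4.25%. These are counts of letters, with no test, and not of bound sites.

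The common endothelial programme was higher in LSECs almost throughout. Of 28 pan-endothelial genes 27 were higher DEGs and 0 lower, against 20.0% and 14.2% of all tested genes, and their median log2 fold change was 4.36 beside -0.12 over all genes. Among junction and surface genes, *Plvap*, which encodes the diaphragm protein of endothelial pores, had 409, 472 and 353 TPM in LSECs and 10.8, 5.44 and 8.95 TPM in non-EC cells, a log2 fold change of 5.49. *Pecam1*, a junction protein that platelets and leukocytes also carry, had 109, 129 and 96.6 TPM against 11.3, 6.91 and 10.5 TPM (3.43). No library of either gene crossed into the range of the other fraction. Smaller differences in the list included the scaffold gene *Shank3* (12.7 ± 2.97 TPM in LSECs and 4.29 ± 1.45 in non-EC cells, SD, n = 3, 1.39), *Egfl7* (124 ± 15.2 and 30.5 ± 2.06, 1.98) and the sphingosine-1-phosphate receptor *S1pr1* (49.0 ± 5.70 and 14.4 ± 2.07, 1.70). The member that was no DEG was *Cd34*, an antigen shared by endothelium and blood progenitors, with 68.9, 86.2 and 61.2 TPM in LSECs and 48.0, 29.5 and 51.0 TPM in non-EC cells (log2 fold change 0.76, 1.04 and a DEG without mitochondrial genes).

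Genes of sinusoidal identity were higher as well, with 15 of 18 tested members higher, 0 lower and a median log2 fold change of 3.89. Only *Lgals1* had a negative value (-0.17, no DEG), with 753 ± 121 TPM in LSECs and 847 ± 132 TPM in non-EC cells and overlapping libraries. Beside *Lyve1*, *Oit3* and *Stab2*, the mannose receptor *Mrc1* had 225, 193 and 194 TPM in LSECs and 13.9, 5.36 and 14.1 TPM in non-EC cells (4.18). *Gpr182*, an atypical chemokine receptor of sinusoids, had 145, 158 and 129 TPM against 3.47, 1.79 and 2.96 TPM (5.30), and *Ehd3*, an endocytic recycling protein of sinusoidal cells, 256, 331 and 229.7 TPM against 15.7, 12.1 and 14.7 TPM (4.16). All 3 genes were clear of overlap, as were 76.3% of all tested genes. *Gata4*, the transcription factor that specifies sinusoidal against continuous endothelium, had 87.2 ± 12.8 TPM in LSECs and 1.18 ± 0.672 TPM in non-EC cells (log2 fold change 5.37), although stellate and mesothelial cells express it too. Coagulation factor VIII, which the liver makes in sinusoidal endothelium, was represented by *F8* at 5.24, 4.25 and 6.20 TPM against 0.260, 0.202 and 0.356 TPM (2.28). Some genes typical of the adult sinusoid were low at this stage. The Fc receptor *Fcgr2b* had 4.80 ± 1.20 TPM in LSECs (0.68, no DEG) and the lectin *Clec4g* 2.09 ± 0.708 TPM (0.77, no DEG). *Clec4g* had -0.018 with quantile normalization and 1.28, as a DEG, with a pseudocount of 0.1 TPM. *Cd209a* was listed at 0 in 5 of the 6 libraries, all LSEC libraries among them, and was not tested. Of 23 genes of scavenging and the lysosome, 11 were higher and 0 lower (median 0.87), and the higher ones included the receptors and adaptors *Cd36* (5.10), *Dab2* (3.20) and *Fcgrt* (2.35). Among the lysosomal hydrolases, *Ctsl* was higher (1.24), and *Ctsd* (0.67), *Ctsb* (0.50), *Lipa* (0.61) and *Hexa* (0.795) were no DEGs. Of the 23 genes, 8 also stand in the sinusoidal list, *Stab1*, *Stab2*, *Lyve1* and *Mrc1* among them. Macrophages also express several of these genes, such as *Mrc1*, *Stab1* and *Cd36*. Of 20 macrophage and granulocyte genes 8, all of macrophages, were higher in the same LSEC libraries and 4 lower, against 20.0% and 14.2% of all tested genes. The levels of the 20 genes summed to 811 to 1240.2 TPM in LSECs and 467 to 996 TPM in non-EC cells, and the part of macrophages in the sinusoidal and scavenging values was not tested.

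Arterial and venous genes were both represented in the LSEC libraries, with 16 of 18 higher, 0 lower and a median of 3.62. Mesenchymal markers were higher in the same libraries, as given below, and the part of other cells in these values was not tested. On the arterial side, the ephrin *Efnb2* had 66.9, 61.7 and 53.0 TPM in LSECs and 1.04, 0.501 and 0.736 TPM in non-EC cells (5.13), and the gap junction gene *Gja5* 18.1 ± 7.44 TPM against 0.139 ± 0.0708 (3.99). On the venous side, the nuclear receptor *Nr2f2* had 179, 169 and 161 TPM against 8.19, 5.24 and 7.04 TPM (4.46), and the ephrin receptor *Ephb4* 116 ± 12.6 against 16.8 ± 2.08 (2.71). None of these 4 genes overlapped between the fractions, and neither did 76.3% of all tested genes. *Bmx*, an arterial kinase gene, missed the threshold (0.98, but 1.22 and a DEG without mitochondrial genes), as did *Vwf*, von Willebrand factor, which megakaryocytes also make, with 12.53, 14.5 and 9.71 TPM in LSECs and 25.99, 14.5 and 27.3 TPM in non-EC cells (-0.80). The other megakaryocyte genes of the same libraries are given with the blood cells.

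Endothelial transcription factors were mostly higher in LSECs. Of 28, 21 were higher (median of the list 2.14) and 5 lower, against 20.0% and 14.2% of all tested genes. The share of lower factors is thus near that of all genes. The ETS factor *Ets1* had 258, 272 and 225 TPM in LSECs and 5.10, 3.40 and 4.77 TPM in non-EC cells (5.55), the SoxF factor *Sox18* 39.7, 51.3 and 32.9 against 0.423, 0.824 and 0.198 TPM (4.84), and the repressor *Bcl6b* 36.7, 31.3 and 25.7 against 0.455, 0.433 and 0.426 TPM (4.47). All 3 were far higher in every LSEC library. The ETS factors *Erg* and *Fli1*, which megakaryocytes and progenitors also use, differed less, with 43.5 ± 6.98 against 9.38 ± 1.38 TPM (2.10) and 54.2 ± 3.19 against 27.4 ± 9.23 TPM (1.02). *Fli1* was no DEG with some single libraries left out, among them non-EC replicate 2 (0.72). The lower DEGs were *Tal1* (-2.60), *Lmo2* (-2.33), *Lyl1* (-2.15), *Prox1* (-1.70) and *Gata2* (-1.20), of which the first 3 work together in blood and endothelial precursors, *Prox1* marks hepatoblasts and lymphatics, and *Gata2* marks blood progenitors. *Tal1* had 22.05, 26.9 and 18.6 TPM in LSECs and 135, 162 and 126 TPM in non-EC cells, and *Lmo2* 53.2, 55.3 and 44.2 against 266, 268 and 244 TPM. Both were lower in every LSEC library, and *Gata2* was no longer a DEG without mitochondrial genes (-0.95).

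Receptors of the VEGF and angiopoietin families were higher in LSECs without exception, 7 of 7 with a median log2 fold change of 4.83, while their ligands were divided. *Flt4*, the receptor of VEGF-C and VEGF-D, had 82.1, 76.8 and 52.6 TPM in LSECs and 0.356, 0.0853 and 0.0769 TPM in non-EC cells (5.91). *Flt1*, a high-affinity receptor of VEGF-A that limits signaling, had 65.4, 65.9 and 52.9 against 0.563, 0.304 and 0.629 TPM (5.38), and *Tek*, the angiopoietin receptor, 149, 147 and 123 against 4.45, 3.43 and 3.95 TPM (4.83). *Tie1* and the coreceptors *Nrp1* and *Nrp2* followed with 3.58, 4.24 and 4.12. Among ligands, 4 of 7 were higher DEGs, *Pgf* (3.19), *Angpt2* (2.84), *Vegfc* (2.63) and *Vegfd* (2.50), and 0 lower. *Vegfa* was present in both fractions, with 60.9, 64.8 and 48.5 TPM in LSECs and 37.8, 40.2 and 43.2 TPM in non-EC cells (0.50, no DEG), and *Angpt1*, the activating ligand of *Tek*, had 23.6 ± 6.86 TPM in LSECs and 21.8 ± 8.02 TPM in non-EC cells. The libraries of *Vegfa* did not overlap and those of *Angpt1* did.

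Every tested gene of the BMP list was a higher DEG, 14 of 14, with a median log2 fold change of 3.29. Of the receptors, *Acvrl1* had 16.2, 18.6 and 13.9 TPM in LSECs and 1.20, 0.333 and 1.08 TPM in non-EC cells (3.23) and its coreceptor *Eng* 132, 141 and 94.3 against 8.33, 6.41 and 7.30 TPM (3.87). Their circulating ligands BMP9, encoded by *Gdf2*, and *Bmp10* are known from stellate cells of the liver, and they had 72.5, 113 and 77.4 TPM against 0.918, 0.714 and 0.590 TPM (5.65) and 16.5, 26.2 and 17.5 against 0.229, 0.0891 and 0.107 TPM (4.18). *Bmp2*, an endothelial signal to hepatocytes for iron control in the adult, had 46.1, 47.7 and 39.8 against 0.241, 0.225 and 0.271 TPM (5.19). Each of these genes had all LSEC libraries above all non-EC libraries. The targets *Id1*, *Id3*, *Smad6* and *Smad7* had log2 fold changes of 2.27, 4.97, 3.36 and 2.38, and *Hamp*, the hepatocyte target hepcidin, was listed at 0 in 5 of the 6 libraries, with 0.391 TPM in non-EC replicate 3, and was not tested. Of the Notch list 10 of 12 genes were higher and 0 lower (median 2.24). The ligand *Dll4* had 24.2, 31.8 and 23.6 TPM in LSECs and 0.0458, 0.0356 and 0.214 TPM in non-EC cells (4.64), *Jag1* 10.7 ± 1.10 against 0.587 ± 0.260 TPM (2.89), and the receptors *Notch4* and *Notch1* had log2 fold changes of 3.52 and 1.99, whereas *Notch2*, the receptor of bile duct formation, was at 11.1 ± 2.49 TPM in LSECs and 13.3 ± 1.84 TPM in non-EC cells and no DEG.

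For some secreted signals a receptor gene lay on the opposite side, and for others it did not. *Hgf*, hepatocyte growth factor, had 16.4, 16.8 and 20.9 TPM in LSECs and 1.82, 0.856 and 1.48 TPM in non-EC cells (3.01), and its receptor *Met* 6.88, 5.25 and 5.38 against 17.6, 10.6 and 18.0 TPM (-1.24), with *Hgfac*, a protease that activates the factor, also lower (-1.75). *Rspo3*, which amplifies Wnt signals, had 53.5, 42.7 and 55.1 TPM in LSECs and 0.888, 0.216 and 0.778 TPM in non-EC cells (4.999), and *Lgr5*, 1 of its receptors, 0.966 ± 0.400 against 3.27 ± 0.504 TPM (-1.13). The more abundant receptor *Lgr4* was no DEG, with 13.6 ± 2.99 TPM in LSECs and 15.6 ± 2.77 TPM in non-EC cells (-0.19). The libraries of *Lgr4* overlapped and those of *Hgf*, *Met*, *Rspo3* and *Lgr5* did not, although *Lgr5* lost its call without LSEC replicate 2. Of 13 genes of the Wnt list, 5 were higher, *Rspo3* (4.999), *Fzd4* (3.39), *Rspo1* (3.26), *Wnt11* (3.14) and *Wnt2* (2.46), and 1 lower, and the Wnt target *Axin2* was no DEG (3.17 ± 0.0896 and 1.59 ± 0.275 TPM). Among genes of the blood-forming niche, 3 of 16 were higher, *Ptn* (5.55), *Csf1* (2.46) and *Cxcl12* (2.17), and 4 lower, with the erythropoietin receptor *Epor* (-2.99) and *Kit* (-2.79) among them, where 7 were lower with quantile normalization and 6 without non-EC replicate 2. The share of higher genes in this list is near the 20.0% of all tested genes, of which 14.2% were lower. *Ptn*, a growth factor for blood stem cells, had 1131, 596 and 1207 TPM in LSECs and 26.8, 10.6 and 23.6 TPM in non-EC cells. *Cxcl12*, the chemokine that holds stem cells in place, had 76.2, 89.3 and 69.1 against 18.3, 14.2 and 17.4 TPM, and its receptor *Cxcr4* 2.03 ± 0.271 against 4.11 ± 2.31 TPM (-0.65, no DEG, with overlap). For stem cell factor, *Kitl* had 24.3 ± 1.82 TPM in LSECs and 17.3 ± 6.35 TPM in non-EC cells (0.53, no DEG), and its receptor *Kit* 8.01, 6.399 and 5.95 against 60.9, 44.1 and 54.2 TPM. *Csf1*, the macrophage growth factor, had 17.8 ± 2.89 against 2.43 ± 0.561 TPM (2.46) and its receptor *Csf1r* 23.7 ± 2.61 against 19.7 ± 8.71 TPM, with overlap. Several of these ligands are made by mesenchyme as well as endothelium, and mesenchymal markers were higher in the same LSEC libraries, as given below, where their part in these values was not tested.

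**Figure D3:**
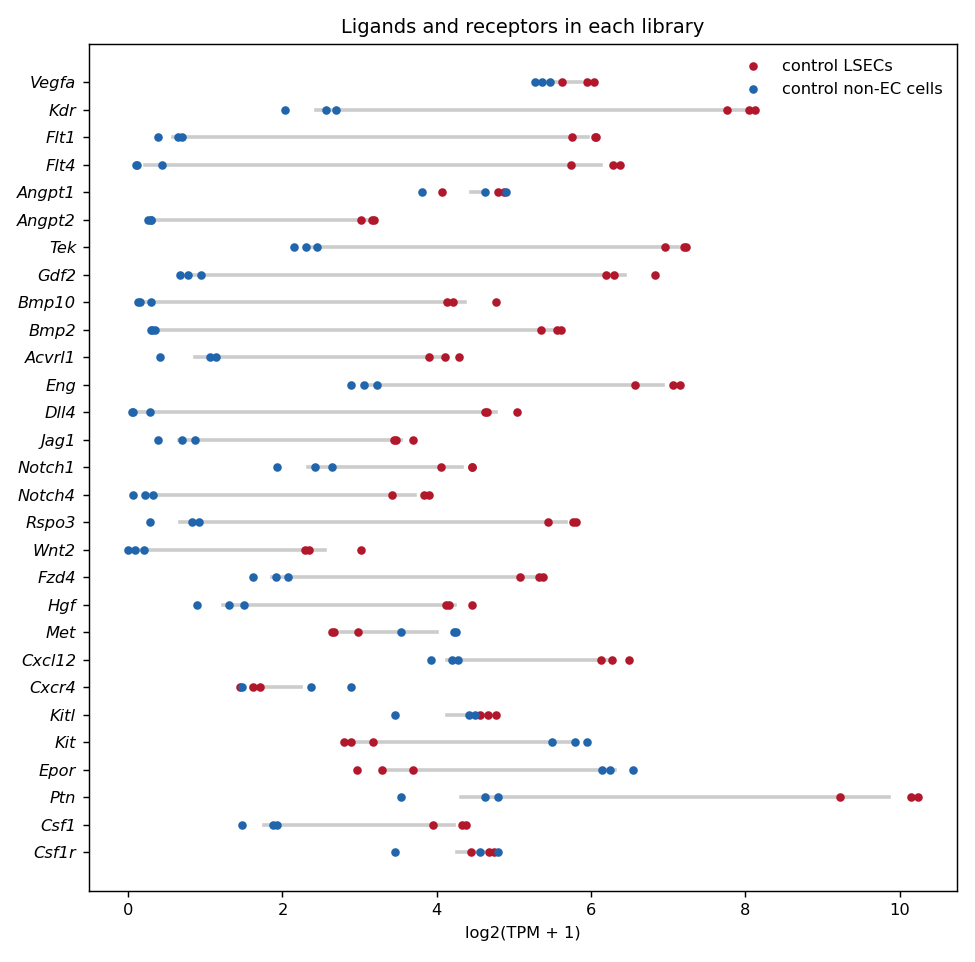
Log2(TPM + 1) of ligand and receptor genes in the 3 LSEC libraries (red) and the 3 non-EC libraries (blue), with each point 1 library and the grey line joining the means of the fractions. *Flt4*, *Bmp2* and *Ptn* are far higher in LSECs, *Kit* and *Epor* are higher in non-EC cells, and *Vegfa*, *Angpt1*, *Kitl* and *Csf1r* lie close together.

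Matrix genes were higher in LSECs, with 14 of 16 basement membrane and matrix genes higher, 0 lower and a median of 3.16. *Col4a1* and *Col4a2*, the chains of type IV collagen, had 366 ± 58.5 and 228 ± 40.6 TPM in LSECs against 8.75 ± 3.39 and 4.21 ± 1.16 TPM in non-EC cells (5.28 and 5.47). *Sparc*, a matrix protein of endothelium and mesenchyme, had 808, 861 and 789.99 TPM against 20.9, 15.7 and 18.3 TPM (5.42), and *Vim*, the intermediate filament vimentin, 1524, 1683 and 1584 against 179, 137 and 195 TPM (3.24). Both separated the fractions without overlap in spite of a clear level in non-EC cells. *Fn1*, fibronectin, which hepatocytes secrete into plasma, had 226, 197 and 164 TPM in LSECs and 289, 219 and 306 TPM in non-EC cells, with overlap (-0.47, no DEG). Of 10 leukocyte adhesion genes 7 were higher, among them *Icam2* (3.56), *Alcam* (3.39) and *Madcam1* (2.38), and 2 lower, *Selplg*, the selectin ligand of leukocytes (-1.68), and *Cd47*, a signal against phagocytosis (-1.27). Of all tested genes 20.0% were higher and 14.2% lower, so the share of lower members is near that of all genes.

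The LSEC libraries also carried markers of stellate cells and of the liver surface mesothelium at high levels. Of 22 genes of stellate and other mesenchymal cells, 21 were higher in LSECs and 0 lower, with a median log2 fold change of 4.40, beside 4.36 for the pan-endothelial list, and none was listed at 0 in all LSEC libraries. *Hand2*, a transcription factor of stellate precursors, had 132, 196 and 147 TPM in LSECs and 2.55, 1.31 and 0.477 TPM in non-EC cells (6.10). *Col3a1*, a fibrillar collagen of mesenchyme, had 772, 519 and 576 against 24.1, 9.59 and 13.2 TPM (5.30), and *Des*, desmin of stellate and muscle cells, 39.99, 75.0 and 46.4 against 3.001, 1.19 and 1.27 TPM (4.29). Every library of these genes kept to its fraction, as in 76.3% of all tested genes, and *Col3a1* was highest in LSEC replicate 1. *Colec11* (5.76), *Lum* (5.50), *Ngfr* (4.92), *Pdgfra* (4.71) and *Lhx2* (4.51), known from fetal stellate cells and mesenchyme, followed, and *Reln*, reelin of stellate cells, was the exception, with 25.9 ± 7.32 TPM in LSECs and 44.7 ± 10.9 TPM in non-EC cells (-0.77, no DEG). All 8 tested mesothelial genes were higher DEGs (median 3.86), led by *Wt1*, a transcription factor of mesothelium, at 41.1, 27.6 and 31.9 TPM against 0.816, 0.278 and 0.334 TPM (4.55), and *Upk3b*, a surface protein of mesothelium, at 26.1 ± 4.36 against 0.428 ± 0.309 TPM (4.26). The summed TPM of the mesenchymal list was 2658, 2201 and 2212 in LSEC replicates 1, 2 and 3 and 136, 72.7 and 106 in the non-EC replicates, that of the mesothelial list 268, 183 and 225 against 14.3, 8.62 and 11.4, and that of the pan-endothelial list 3022, 3350.3 and 2565 against 205, 138 and 200.6. In bulk RNA, more cells of a type and more RNA per cell cannot be told apart, and this holds for each list in these data. The list also holds *Pdgfrb* (41.6 ± 5.98 against 2.54 ± 0.532 TPM) and *Rgs5* (28.5 ± 2.80 against 0.673 ± 0.332 TPM), which are known from pericytes among other mesenchymal cells. Pericytes can carry CD146 themselves, and their part in these values was not tested.

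**Figure D4:**
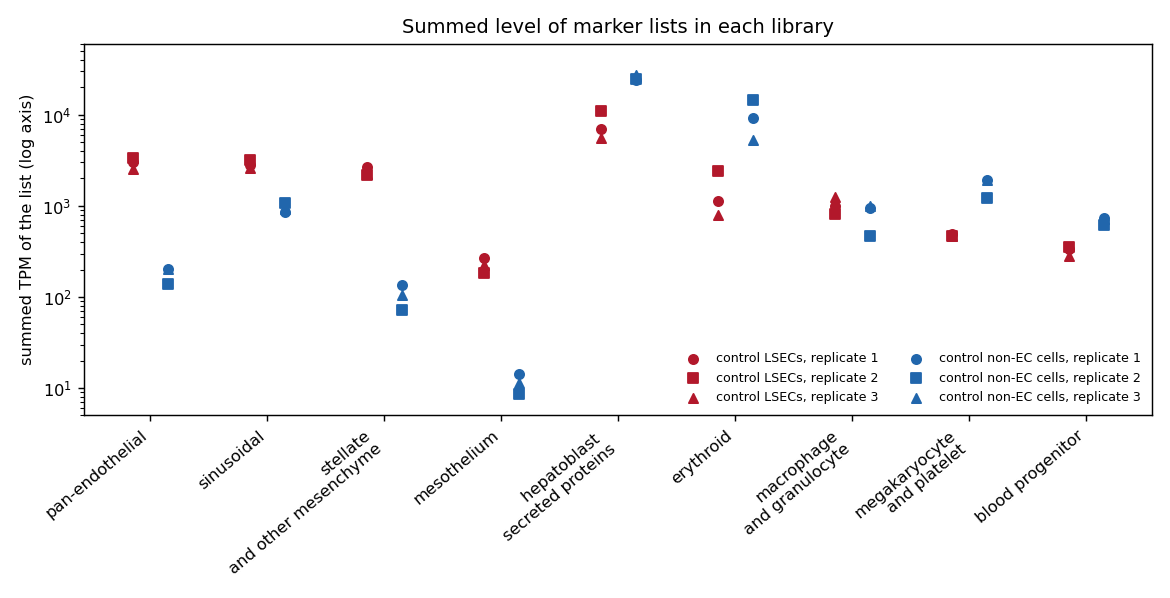
Summed TPM of 9 marker lists in each control library on a log axis, with LSEC libraries in red, non-EC libraries in blue and the symbol giving the replicate number. The pan-endothelial, mesenchymal and mesothelial sums are over 10 times higher in LSEC libraries, the hepatoblast and erythroid sums are higher in non-EC libraries, and LSEC replicate 2 is the highest LSEC library in both of these.

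Hepatoblast genes were lower in LSECs, by less than the endothelial genes were higher. Of 23 genes of secreted hepatoblast proteins, 22 were lower DEGs and 0 higher, with a median log2 fold change of -1.89 and DEGs that ran from -2.54 for *Apob*, the protein of low-density lipoprotein, to -1.42 for *Apoa1*, that of high-density lipoprotein. *Alb*, albumin, had 1250.5, 2079 and 930.4 TPM in LSECs and 5564, 5779 and 6475 TPM in non-EC cells (-2.14), and *Ttr*, the thyroxine carrier transthyretin, 172, 312 and 159 against 623, 735 and 649.6 TPM (-1.70). In both, LSEC replicate 2 was the highest LSEC library and remained below the non-EC libraries. The exception was *Apoe*, the apolipoprotein that macrophages and mesenchyme also make, with 1350.3, 1941 and 1258 TPM in LSECs and 1461, 1404 and 1692 TPM in non-EC cells, with overlap. The summed TPM of the list was 6931, 10982 and 5638 in LSEC replicates 1, 2 and 3 and 24346, 24712 and 27197 in the non-EC replicates, so LSEC libraries held 30.9% of the non-EC mean. The same proportion was not seen in all hepatoblast genes. Among transcription factors and surface genes 13 of 20 were lower and 2 higher (median -1.23), and among liver enzymes 6 of 10 lower and 0 higher (median -1.42). *Hnf4a*, the nuclear receptor that directs hepatocyte differentiation, had 17.8, 23.3 and 14.1 TPM in LSECs and 71.1, 55.5 and 78.6 TPM in non-EC cells (-1.85), and *Cdh1*, E-cadherin, 6.94, 9.36 and 4.73 against 25.5, 27.5 and 27.2 TPM (-1.83). The 2 higher DEGs were *Nr1h4*, the bile acid receptor, at 5.47, 9.37 and 5.47 against 0.149, 0.406 and 0.626 TPM (2.46), and the adhesion molecule *Epcam* at 3.88, 4.23 and 2.97 against 1.48, 0.790 and 1.75 TPM (1.02), a call that was lost with quantile normalization (0.34) and without LSEC replicate 1 (0.98), LSEC replicate 2 (0.93) or non-EC replicate 2 (0.83). *Dlk1*, a surface marker of hepatoblasts that mesenchyme also expresses, had 280.05 ± 28.0 TPM in LSECs and 285 ± 34.8 TPM in non-EC cells, with overlap. Of the enzymes, *Ass1*, a urea cycle enzyme (-1.93), and *Gys2*, liver glycogen synthase (-1.92), had the largest differences, while 8 of the 18 listed enzymes did not reach the level for testing.

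Erythroid genes had the lowest list median, -2.92, with 23 of 27 lower in LSECs and 1 higher. *Klf1*, the master factor of red cell genes, had 23.5, 39.8 and 15.9 TPM in LSECs and 321, 459 and 308 TPM in non-EC cells (-3.80), *Gata1* 10.1, 11.6 and 7.72 against 126, 145 and 115 TPM (-3.59), and *Tfrc*, the transferrin receptor, 66.3, 77.1 and 51.4 against 491, 527 and 442 TPM (-2.90). LSEC replicate 2 was the highest LSEC library for all 3, none of which overlapped. Adult globins varied between embryos. *Hbb-bs* had 229.95, 605 and 209 TPM in LSECs and 1678, 3038 and 994 TPM in non-EC cells, and *Hba-a1* 188, 391 and 159.97 against 1537, 2521 and 724 TPM, with replicate 2 highest in both fractions. *Hba-a2* was lower by a similar amount (-2.53) and no DEG (limma adjusted p = 0.189), but was a DEG with the replicate block, which pairs same-numbered libraries (limma adjusted p = 3.30e-06, lower in 3 of 3 pairs). Near-identical globin copies share reads, and how such reads were counted is not given in the sources used here, so their single values are uncertain. The embryonic globin *Hbb-y* went against the list, with 14.99, 7.64 and 15.9 TPM in LSECs and 5.69, 3.16 and 2.03 TPM in non-EC cells (1.60, limma adjusted p = 0.00239), while *Hbb-bh1*, a second embryonic globin, was lower (-1.23) with overlapping libraries. Without non-EC replicate 1 the difference of *Hbb-bh1* fell short of the threshold and it was no DEG. Red cells, which from the yolk sac carry embryonic globins, were lysed before the selection, and the part of this step in the levels was not tested. Summed erythroid TPM were 1121, 2419 and 792 in LSEC replicates 1, 2 and 3 and 9157, 14727 and 5240.2 in the non-EC replicates.

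Megakaryocyte genes were lower in LSECs in 16 of 17 cases, with none higher and a median of -2.12. *Pf4*, platelet factor 4, had 178, 172 and 193 TPM in LSECs and 816, 537 and 792 TPM in non-EC cells (-1.95), and *Nfe2*, a factor of platelet formation, 3.18, 4.73 and 3.32 against 39.3, 40.3 and 35.2 TPM (-3.06). The exception was *Clec1b*, a platelet receptor that sinusoidal endothelium also expresses, with 71.9, 86.9 and 76.5 TPM in LSECs and 54.4, 33.5 and 73.5 TPM in non-EC cells (0.60, no DEG). Of 17 progenitor genes 11 were lower and 3 higher (median -1.37), against 14.2% and 20.0% of all tested genes. The lower ones were led by *Myb* and *Flt3*, a receptor of lymphoid and myeloid progenitors (0.237 ± 0.184 against 10.4 ± 2.05 TPM, -3.19), and *Gfi1* was listed at 0 in all LSEC libraries against 3.01, 2.01 and 4.02 TPM in non-EC cells. The higher ones were *Procr* (3.48), *Cd93* (3.34) and *Mecom* (3.29), which endothelial cells also express, and *Cd93*, *Cd34*, *Gata2* and *Lmo2* stand in the endothelial lists as well. Of 12 genes expressed across blood cells 9 were lower and 0 higher (median -1.42), from *Ikzf1*, a lymphoid and progenitor factor (-3.73), to *Ptprc*, the leukocyte antigen, with 6.58, 5.26 and 8.38 TPM in LSECs and 19.5, 8.21 and 22.98 TPM in non-EC cells (-1.11, with overlap). *Ptprc* was no DEG without mitochondrial genes (-0.88) or with any of several single libraries left out, among them non-EC replicate 3 (-0.85).

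Macrophage and granulocyte genes, taken as 1 list, lay in opposite directions. Of 20 members, 8 were higher in LSECs and 4 lower, with a median of 0.46. Among all tested genes 20.0% were higher and 14.2% lower, so the share of lower members is near that of all genes. All 4 lower DEGs, *Mpo* (-6.80), *Prtn3* (-4.42), *Elane* (-3.24) and *Ctsg* (-3.23), encode proteins of neutrophil granules. The higher DEGs were macrophage genes, *Marco* (2.26), *Cd5l* (2.25), *Timd4* (1.77), *C1qa* (1.66), *C1qb* (1.55), *C1qc* (1.29), *Adgre1* (1.21) and *Cd68* (1.07). *Marco*, a scavenger receptor of macrophages, had 227, 87.7 and 261 TPM in LSECs and 67.4, 14.1 and 45.4 TPM in non-EC cells, *Cd5l* 95.1, 58.1 and 121 against 30.8, 8.39 and 20.4 TPM, and *Adgre1*, which encodes F4/80, 19.8, 16.1 and 25.0 against 10.7, 4.45 and 10.7 TPM. Each LSEC library was above each non-EC library for these genes, and non-EC replicate 2 was the lowest for all 3. Without that replicate 5 members were higher DEGs and 6 lower, and *Cd5l* alone of the higher ones passed when limma tested against a log2 fold change of 1. The other 8 tested members, which macrophages share with other myeloid cells in part, were no DEGs and had values of either sign, with *Fcgr1* (0.89), *Lyz2* (0.57), *Csf1r* (0.35), *Tyrobp* (0.34), *Fcer1g* (-0.13), *Itgam* (-0.67) and *Spi1* (-0.83) and the chemokine receptor *Cx3cr1* (14.96 ± 2.79 against 14.8 ± 6.3995 TPM), of which *Fcgr1* was a DEG (1.15) and *Fcer1g* above 0 (0.14) without mitochondrial genes.

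Lists with no tie to a cell type mostly had medians nearer to 0, and their counts stand beside 20.0% higher and 14.2% lower among all tested genes. Of 20 cell cycle genes 4 were lower in LSECs, *Mcm2* (-1.29), *Mcm5* (-1.17), *Ccna2* (-1.07) and *Mcm6* (-1.07), and 0 higher. The share of lower genes was near the 14.2% of all genes, and the share of higher genes was below the 20.0% of all genes. The median was -0.79, and -0.52 without mitochondrial genes. In that scaling 1 of the 4, *Mcm2*, a helicase subunit of replication, was a DEG, and with quantile normalization none was. *Mki67*, the proliferation antigen, had 189, 145 and 129 TPM in LSECs and 275, 235 and 302 TPM in non-EC cells (-0.82, no DEG), levels that were high in both fractions. Of 14 immediate-early genes, which cell dissociation can induce, 5 were higher, *Atf3* (2.81), *Jun* (2.06), *Klf6* (1.88), *Dusp1* (1.70) and *Nr4a1* (1.43), and 0 lower (median 0.82). Transcription inhibitors were present during digestion, and the part of dissociation in these values was not tested. Of 16 interferon response genes 7 were higher, led by *Gbp2* (2.21), *Ifi27* (1.87) and *Oasl2* (1.65), and 0 lower (median 0.92), and of 8 class I antigen presentation genes 0 were higher and 1 lower (*Tap2*, -1.12, no DEG without mitochondrial genes). All 13 mitochondrial transcripts were higher DEGs, by 1.42 to 1.82, of which 9 were DEGs with quantile normalization.

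**Figure D5:**
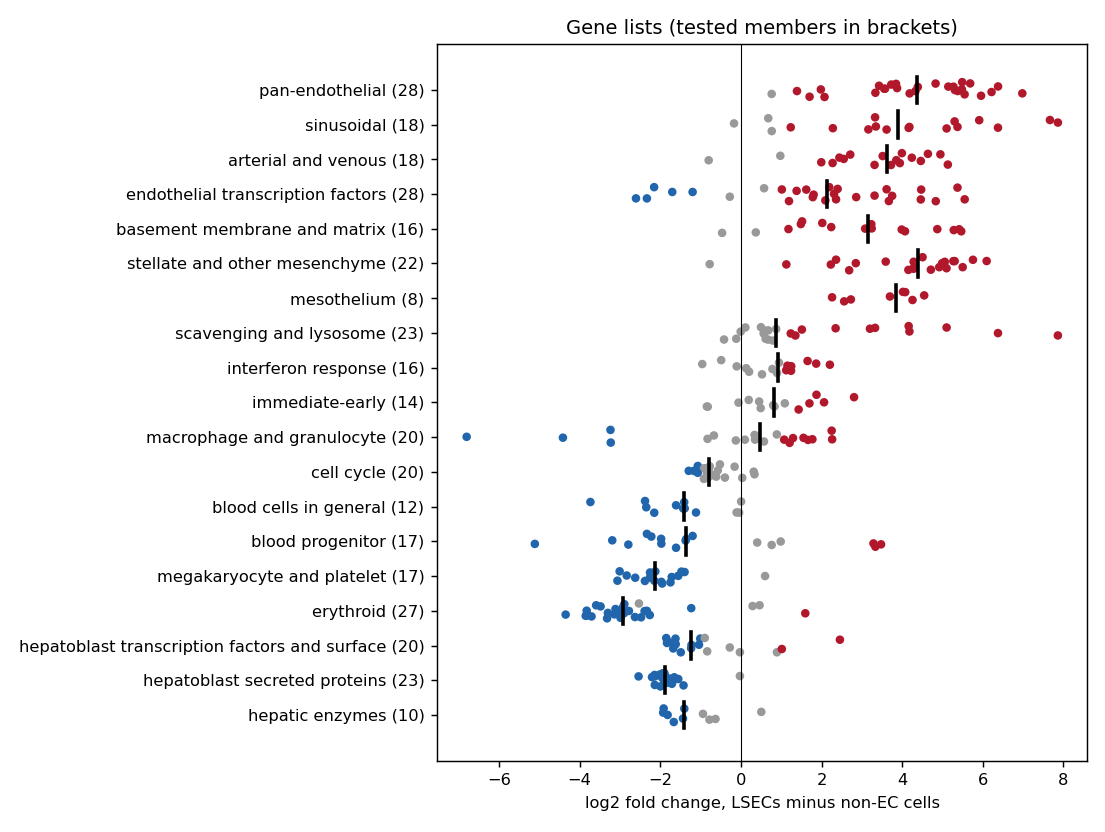
Log2 fold change of LSECs against non-EC cells for the tested members of 19 gene lists, 1 point a gene, with higher DEGs in red, lower DEGs in blue, other genes in grey and the list median as a black bar. The medians of the endothelial, matrix, mesenchymal and mesothelial lists lie right of 0 and those of the hepatoblast, erythroid, megakaryocyte, progenitor and general blood lists left, while some lists, such as the endothelial and the hepatoblast transcription factors and the macrophage and granulocyte genes, have DEGs on both sides.

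The same comparison of LSECs with non-EC cells was repeated within each mutant genotype, in libraries from other embryos that share none with the controls but carry endothelial deletions. Of the 2579 genes higher in control LSECs, 2217 (86.0%) were higher DEGs in *Chd4-ECko*, where 21.3% of all tested genes were. In *Brg1-ECko* they numbered 2101 (81.5%, against 19.0%), and in *Brg1/Chd4-ECdko* 2303 (89.3%, against 19.9%). Of the 1830 lower genes, 65.1%, 51.8% and 58.2% were lower DEGs in the same order of genotypes, beside 11.8%, 8.14% and 9.18% of all tested genes. No higher gene was called the opposite way in any genotype, and of the lower genes 2 were, *Hbb-bh1* and the histone gene *H2ac23* in *Brg1/Chd4-ECdko*, both picked out after seeing their values, whereas 1 fit of all 24 libraries called *Hbb-bh1* alone the opposite way, in *Chd4-ECko* and *Brg1/Chd4-ECdko*. The sign was opposite for 28, 16 and 4 of the lower genes, again in that order. Pan-endothelial genes had 27 higher DEGs of 28 in each mutant genotype, the number found in controls. Mesenchymal genes had 20, 20 and 21 of 22, with *Reln* lower in *Chd4-ECko*, and mesothelial genes 8 of 8 in each. The median of the hepatoblast secreted proteins was -2.71, -1.60 and -1.88 in the same order, beside -1.89 in controls. Of the blood lists, erythroid genes had 22, 21 and 23 lower DEGs of 27 (23 in controls) and 0, 2 and 3 higher (1 in controls). Genes expressed across blood cells had 4, 5 and 4 lower DEGs of 12 against 9 in controls, progenitor genes 8, 9 and 9 of 17 against 11, and megakaryocyte genes 13, 15 and 15 of 17 against 16. The macrophage and granulocyte list had 12, 7 and 12 higher DEGs of 20 against 8 in controls, and none of these differences between genotypes was tested.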

How the data were processed

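RNA was sequenced by the authors from CD146+ and unbound cells of E12.5 livers, with poly-A selected libraries. The authors processed the reads in CLC Genomics Workbench, with GRCm39 (mm39) as the build and deposited TPM per gene. Strandedness and the handling of reads that match several genes are not given in the sources used here. TPM hold no read number, so no counting error could be given, and the number of libraries limits precision. The 8 deposited columns of group means equal the means of their replicates and were not used.

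The members and the gene lists were chosen with earlier results of these data known. The TPM of the 6 control libraries were transformed as log2(TPM + 1) and fitted with limma 3.58.1 in R 4.3.3, with a trend of the variance on the mean. All adjusted p-values are limma's, two-sided and Benjamini-Hochberg adjusted over the 12880 tested genes. On simulated data with 200 of these genes changed by 2 log2 units, 100% were recovered with 0 other calls. The simulation used independent noise, as many rises as falls, and changes only in genes well above the floor. It checks the code and gives no error rate for these data. Gene positions come from GENCODE M39 (25335 of 25361 matched). Figures used python 3.11.15 with numpy 2.4.6, pandas 2.3.3, scipy 1.17.1 and matplotlib 3.10.9.

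The genes named are the 6 markers, the 10 DEGs without overlap that had the largest and the 10 with the smallest log2 fold change, members of the gene lists (those with the largest, smallest or highest values, those called against their list, and receptors and ligands), and the most abundant genes. Any gene outside this rule is marked as picked with its values in view. Some members of the lists are counted but not reported here by name. RefSeq promoters were found for 10163 of the tested genes. Same-numbered LSEC and non-EC libraries deviated together from their group means, with correlations of 0.309, 0.439 and 0.340 over genes. The replicate block therefore treated the replicate numbers as pairs, although the labels do not say that a number stands for 1 embryo. Adjusted p-values given without mention of the block come from the fit without pairing. Alternatives were a pseudocount of 0.1 TPM, other filters and scalings, no variance trend, the replicate block, 1 fit of 24 libraries, other call thresholds and each library left out in turn.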

Additional observations from a re-analysis of the deposited data

How the results depend on the processing

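The number of DEGs stayed within 1.5 times of 4409 under the other scalings and filters, and ran from 4316 to 4485 with each library left out (2417 to 2692 higher and 1704 to 1938 lower). With no fold change threshold there were 9426 DEGs, 4186 higher and 5240 lower, and when limma tested against a log2 fold change of 1 there were 2584, 821 of them lower. Genes with a mean of at least 5 TPM gave 1619 higher and 1568 lower DEGs (50.8% higher). Lower DEGs numbered 1180 without mitochondrial genes and 1195 without mitochondrial and globin genes, a scaling that raises the LSEC values. Median centring gave 2814 higher and 1474 lower DEGs (65.6% higher). The share of TPM in mitochondrial genes was 22.6% to 24.6% in LSECs and 6.84% to 7.60% in non-EC cells with a library left out. In 1 fit of 24 libraries 55.7% of the genes lower in controls were lower DEGs in *Brg1-ECko*, against 51.8%. With the replicate block, which pairs same-numbered libraries, there were 4416 DEGs, among them all 4409, so that the pairing ended no call, and *Hba-a2* was among those it added. Of 3511 values of named genes under alternatives, 79 lost their call, 27 gained one and 29 changed sign, in genes that were no DEGs. *Angpt1* (0.14) had -0.18 to 0.39 with a library left out. *Apoe* (-0.0249) had 0.33 with quantile normalization, 0.25 without mitochondrial genes, 0.24 without mitochondrial and globin genes, 0.0866 with median centring and -0.22 to 0.0962 with a library left out. *Clec4g* (0.77) had -0.018 with quantile normalization and 1.28, as a DEG, with a pseudocount of 0.1 TPM. *Csf1r* (0.35) had -0.0565 to 0.61 with a library left out. *Cx3cr1* (0.10) had -0.30 to 0.33 with a library left out. *Dlk1* (-0.0246) had 0.31 with quantile normalization, 0.25 without mitochondrial genes, 0.24 without mitochondrial and globin genes, 0.0869 with median centring and -0.12 to 0.0611 with a library left out. *Fcer1g* (-0.13) had 0.0366 with quantile normalization, 0.14 without mitochondrial genes, 0.14 without mitochondrial and globin genes and -0.46 to 0.0503 with a library left out. *Lgr4* (-0.19) had 0.0716 without mitochondrial genes and 0.0651 without mitochondrial and globin genes. *Notch2* (-0.25) had 0.00731 without mitochondrial genes and 0.000882 without mitochondrial and globin genes. The cause of these changes was not tested. Low values are limited by sequencing depth, and TPM do not give the reads behind them.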

Other observations

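Imprinted genes, a list drawn up after values were seen, held 10 higher and 0 lower DEGs among 19 tested members (median log2 fold change 1.41, beside -0.12 over all genes, of which 20.0% were higher and 14.2% lower). Beside *Mest*, they included *Plagl1* (5.82), *Nnat* (5.62) and *Ndn* (4.08), as well as *Cdkn1c*, a cell cycle inhibitor and 1 of the most abundant mRNAs of LSECs, with 1891, 2818 and 2210.03 TPM in LSECs and 327, 269.96 and 312 TPM in non-EC cells (2.91). *Igf2*, fetal insulin-like growth factor, had 1068, 1150.3 and 838 TPM in LSECs and 667, 559 and 675 TPM in non-EC cells (0.68, no DEG). Many imprinted genes are expressed in embryonic mesenchyme, whose markers were higher in the same libraries, and the part of these cells was not tested.

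Of the GIMAP family, GTPases best known from lymphocytes and likewise listed after values were seen, 5 of 6 tested members were higher DEGs in LSECs and 0 lower, against 20.0% and 14.2% of all tested genes. *Gimap4* had 329, 473 and 306 TPM in LSECs and 4.29, 4.58 and 5.93 TPM in non-EC cells (5.95), and *Gimap6* 123, 118 and 107 against 12.4, 11.2 and 11.9 TPM (3.19).

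Eosinophil granule genes, picked with their values in view, stood beside the neutrophil genes among those lower in LSECs. *Prg2* had 4.69, 7.49 and 15.4 TPM in LSECs and 123, 149.7 and 315 TPM in non-EC cells (-4.29), *Epx* 0.0609, 0.243 and 0.0526 against 10.97, 9.28 and 22.8 TPM (-3.68), and *Ear6* 0.519, 0 and 1.80 against 13.1, 17.5 and 33.2 TPM (-3.68). Replicate 3 was the highest non-EC library for all 3, as it was for *Mpo* and *Prtn3*.

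Of the heat shock genes among the most abundant genes of either fraction, picked with their values in view, *Hspd1* (-1.75), *Hsp90aa1* (-1.21) and *Hspe1* (-1.02) were lower DEGs in LSECs (without mitochondrial genes the last 2 were no DEGs, at -0.94 and -0.74), and *Hspa8* (-0.79), *Hsp90ab1* (-0.54) and *Hsp90b1* (0.40) were no DEGs. *Hspd1*, a mitochondrial chaperone, had 773 ± 79.6 TPM in LSECs and 2595 ± 63.8 TPM in non-EC cells.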
